A study of Sus scrofa with 6 samples.

Results

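The spindle assembly checkpoint genes described here are BUB1, BUB1B, BUB3, MAD1L1, MAD2L1, TTK, ZWINT, KNL1 and ZW10. They were chosen by symbol, as known members of this checkpoint and with earlier results of these data known, and are 9 of the 29861 genes measured by RNA sequencing in porcine oocytes. Of the 9 genes, 6 averaged 1 FPKM or more over all samples and entered the test, whereas BUB1, ZW10 and MAD1L1 lay below that minimum. FPKM is the number of sequenced fragments of a gene scaled to its transcript length and to the fragments of the sample, so it is the scale on which levels of different genes can be compared.

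The oocytes were taken from pig ovaries of an abattoir, matured in vitro with their cumulus cells and pooled before RNA extraction. Control oocytes matured at the usual culture temperature. Heat-stressed oocytes spent the first 24 h of maturation at a raised temperature. NMN-supplemented oocytes received the same heat together with nicotinamide mononucleotide (NMN), a precursor of the coenzyme NAD+. Each of the 3 groups has 2 samples, and the NMN dose of the sequenced oocytes is not given in the sources used here. No group received NMN without heat, so an effect of NMN by itself was not measured. The sample labels give the germinal vesicle (GV) stage and 24 hours, whereas the study's methods describe metaphase II oocytes, so the meiotic stage behind the values is not settled. The labels do not say that the samples of a group came from separate cultures, so the P-values measure only the spread between these samples, which may be technical.

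The spindle assembly checkpoint delays anaphase until every kinetochore, the protein plate on a centromere, is attached to spindle microtubules. At an unattached kinetochore the kinase TTK phosphorylates the scaffold KNL1, which then recruits BUB3 with BUB1 and BUB1B. MAD1L1 holds MAD2L1 there, and MAD2L1, BUB1B and BUB3 join CDC20 in the mitotic checkpoint complex, which inhibits the anaphase-promoting complex. In oocytes the same proteins time the first meiotic division, and they are made from mRNAs that the oocyte stored during growth.

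Stored oocyte mRNAs are read out under the control of short elements near their 3′ end. A poly(A) signal marks where the tail is added, and a cytoplasmic polyadenylation element (CPE) upstream of it can direct a change of tail length during maturation. The last 150 nt of the longest RefSeq transcript of each gene (build Sscrofa11.1) were searched on the transcript's own strand for the poly(A) signals AATAAA and ATTAAA and for the CPE letters TTTTAT and TTTTAAT, which can overlap the signals by up to 3 letters. A poly(A) signal was found for 9 of 9 checkpoint genes, compared with 65.2% of 20635 protein-coding pig genes. A CPE match was found for 3 of 9, namely KNL1, MAD2L1 and MAD1L1, compared with 20.7% of all genes. The stretches below are shown because they hold the letters of such elements in the genes on which the results turn. They are written 5′ to 3′ as DNA letters, and capitals mark the matched signal or CPE.

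KNL1 CPE: agtattggctatTTTTATaacattctttgg

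KNL1 poly(A) signal: tttttttgcactATTAAAgtaagtttgtta

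MAD2L1 CPE: ttaaaaatgcctTTTTATgtttcataaaaa

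MAD2L1 poly(A) signal: tgacagtgataaAATAAAgttaaatgtatg

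BUB1B poly(A) signal: tattttgtaaatAATAAAattgtatttgtt

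BUB3 poly(A) signal: tccatgctgtctAATAAAtcagagattcag

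TTK poly(A) signal: cagtatgattatATTAAAtttgtttctacc

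The KNL1 stretches lie on the minus strand at chr1:130652561-130652590 for the CPE and chr1:130652500-130652529 for the signal, with 55 nt between the matched letters. Those of MAD2L1 lie on the plus strand at chr8:103936591-103936620 and chr8:103936633-103936662, with 36 nt between them. The BUB1B stretch is at chr1:131093029-131093058 on the minus strand, that of BUB3 at chr14:132715314-132715343 on the plus strand, and that of TTK at chr1:86076582-86076611 on the minus strand. All 7 lie in the last exon. KNL1 and TTK carry the variant letters ATTAAA, and BUB1B, BUB3 and MAD2L1 carry AATAAA. A match is a description of the letters in this window and not evidence that the element acts in these oocytes.

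The 9 genes lie on 5 chromosomes other than the sex chromosomes, and KNL1 (chr1:130652493-130728989) and BUB1B (chr1:131093026-131143840) are near neighbours on the minus strand, 364036 bp apart. TTK lies elsewhere on the same chromosome (chr1:86076576-86125334, minus strand). BUB3 is at chr14:132703088-132715353 and ZWINT at chr14:94094781-94109447, both on the plus strand. BUB1 (chr3:45585188-45623240, plus) and MAD1L1 (chr3:1236066-1559346, minus) share chromosome 3, MAD2L1 is at chr8:103927358-103936669 on the plus strand, and ZW10 is at chr9:41358801-41400254 on the minus strand. The exons of none of the 9 overlap those of another annotated gene. MAD1L1 spans LOC106509613 on the other strand and LOC110259832 on its own, and its locus in the table is shared by 3 genes, so its low values are uncertain. A possible partial copy of KNL1, LOC110258507, lies on an unplaced scaffold with 787 nt of transcript compared with 8982 nt for KNL1. It was judged by exon length alone, as 8 of its exons have a length found in KNL1, and the sequences were not compared. LOC110258507 was listed at 0 in 5 of 6 samples and reached 0.00312 FPKM in the remaining sample.

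The checkpoint genes differed widely in level. MAD2L1 stood at a mean of 24.8 FPKM over the 6 samples, followed by BUB3 at 7.69, BUB1B at 5.28, KNL1 at 2.66, TTK at 2.26 and ZWINT at 1.43. BUB1 averaged 0.467 and ZW10 0.466 FPKM, and MAD1L1 was at 0.0170. By mean level MAD2L1 was gene 388 of 29861, above 91.8% of the 4713 tested genes, whereas ZWINT was above 16.6% of them. The 3 checkpoint proteins of the inhibitory complex had the most abundant mRNAs, and MAD1L1, the kinetochore partner of MAD2L1, the least abundant.

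Neighbours in this order were compared within samples with an exact two-sided sign-flip permutation test on log2(FPKM + 1), adjusted over 8 pairs. In 6 of the 8 pairs the upper gene was higher in 6 of 6 samples (P = 0.0313, the smallest this permutation test allows, adjusted P = 0.0417). The order was taken from the same 6 samples, which span all the groups, so the test describes these samples and is no independent support for it. Effects of transcript length and GC content on levels of different genes were not removed. The mean log2 difference was 1.56 ± 0.19 (SD, n = 6) between MAD2L1 and BUB3, 0.48 ± 0.30 between BUB3 and BUB1B, and 0.84 ± 0.34 between BUB1B and KNL1. KNL1 and TTK differed by 0.11 ± 0.42, less than their spread, with KNL1 higher in 4 of 6 samples (exact permutation P = 0.5, adjusted P = 0.571). BUB1 and ZW10 could not be put in order either, with BUB1 higher in 3 of 6 samples (exact permutation P = 0.938, adjusted P = 0.938). TTK exceeded ZWINT in 6 of 6 samples although the ranges of their FPKM overlapped.

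**Figure D1:**
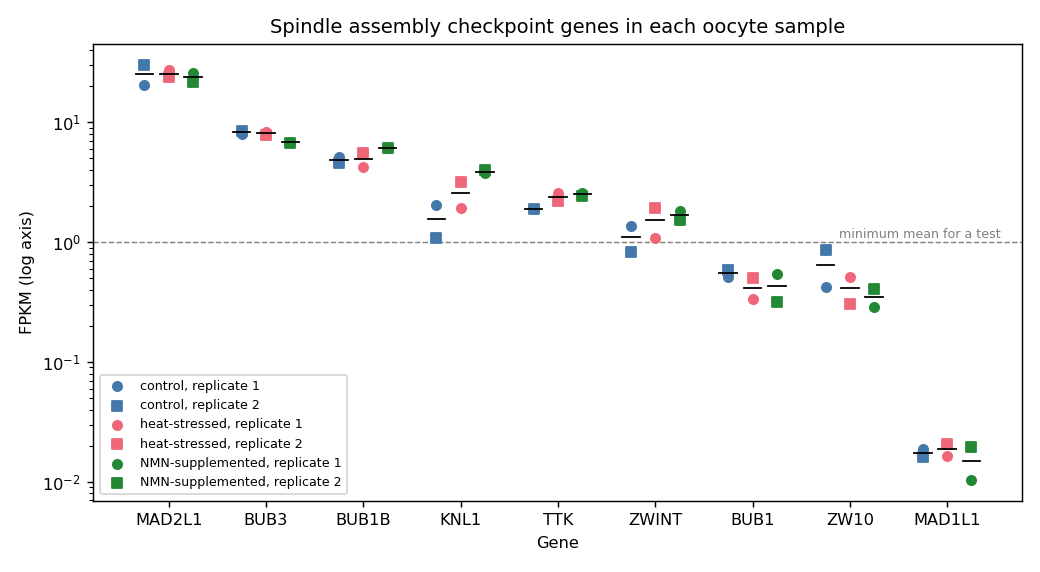
FPKM of the 9 spindle assembly checkpoint genes in each of the 6 samples, on a log axis, with the genes ordered by mean level along the x axis, colours for the groups, circles and squares for replicates 1 and 2, a short line at each group mean and a dashed line at the minimum mean for a test, 1 FPKM. KNL1 ran from 1.07 to 3.99 FPKM with both NMN-supplemented samples on top, and MAD2L1 from 20.4 to 30.1 FPKM with all groups overlapping.

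KNL1, the scaffold on which the BUB proteins gather, showed the widest spread of the tested checkpoint genes. Its FPKM was 2.04 and 1.07 in control samples, 1.91 and 3.19 in samples heated without NMN, and 3.75 and 3.99 in those heated with it. Both NMN-supplemented samples were above all the others, and the heat-stressed and control samples overlapped. The group means were 1.56 ± 0.685, 2.55 ± 0.909 and 3.87 ± 0.170 FPKM (SD, n = 2). The highest sample was 3.72 times the lowest, and 86.7% of the tested genes had a smaller log2 range over the 6 samples.

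KNL1 rose in NMN-supplemented oocytes compared to control oocytes, by 2.48 times in FPKM. On the log2(FPKM + 1) scale, which understates changes of low genes, the change was 0.96 with an SE of 0.25 and a 95% interval of 0.32 to 1.59 (limma, adjusted P = 0.0498). It was the 1 checkpoint gene of 6 past the adjusted threshold in this comparison, in which 21.5% of all tested genes passed, 12.4% as higher and 9.17% as lower. A share of 1 in 6 is near that background. The adjusted P was close to 0.05, and it stayed below it in 3 of 15 alternatives, with a range of 0.0478 to 0.178. The direction was the same in 15 of 15, with log2 changes from 0.50 to 1.32. Several alternatives could not move this change. These were a lower or no minimum, the replicate block, only the compared groups, no variance trend and leaving out a heat-stressed sample. The alternatives that kept the adjusted P below 0.05 were all among them. Without control replicate 2, the sample lowest in KNL1, the change was 0.68 with an adjusted P of 0.178, and the adjusted P in limma was 0.0575 without control replicate 1, 0.168 without NMN-supplemented replicate 1 and 0.175 without replicate 2 of that group. In pooled RNA, a change in the share of cells holding KNL1 mRNA and a change in its amount per cell cannot be told apart. FPKM is relative to the fragments of the sample, so a change in the rest of the library cannot be told apart either.

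In the other comparisons KNL1 moved by similar amounts that did not pass. The change was 0.48 (SE 0.25, 95% interval −0.16 to 1.11) in heat-stressed compared to control oocytes, with an adjusted P of 0.311 in limma. It was again 0.48 (95% interval −0.15 to 1.11, limma adjusted P = 0.400) in NMN-supplemented compared to heat-stressed oocytes, whose samples did not overlap. These 3 comparisons share samples and are not independent of each other.

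The change of KNL1 moved with measured features of the libraries. Over the 4695 tested genes with an annotated transcript, the median log2 change between NMN-supplemented and control oocytes went from −0.23 in the shortest to 0.34 in the longest of 5 equal bins of transcript length. KNL1, at 8982 nt, has a longer transcript than 96.1% of them and, at 37.1% GC, one poorer in GC than all but 4.47%. In the longest bin 46.4% of genes were higher at an unadjusted P under 0.05, compared with 5.32% in the shortest. After removal of the trends with length and GC content, an alternative chosen after seeing the data, the KNL1 change was 0.50 with an adjusted P of 0.176. The mitochondrial share of the FPKM was 66.4% and 61.7% in the controls, 62.4% and 71.6% after heat stress, and 74.2% and 74.7% after heat with NMN. The samples had the same order in KNL1. In heat-stressed replicate 1, and in that sample alone, the gene LOC100513953 took 13.9% of all FPKM. That lowers the mitochondrial share there, so the shared order depends on counting this gene. Without it the share of this sample would be higher, and the order was not computed that way. The share of all genes with the same order was not counted. The part of transcript length, GC content and mitochondrial share in the KNL1 result beyond these values was not tested.

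**Figure D2:**
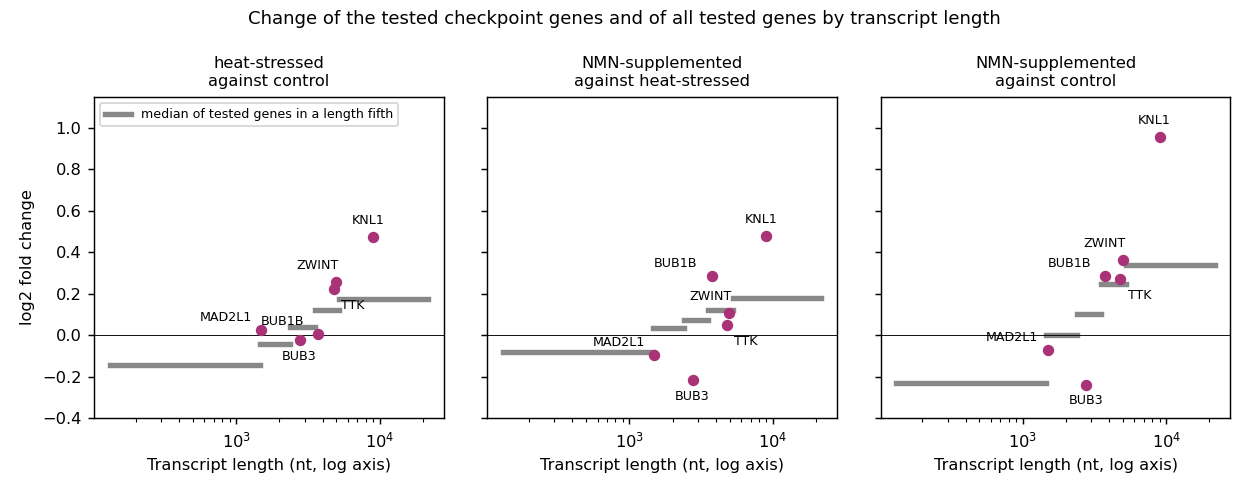
log2 change of the 6 tested checkpoint genes (points) against transcript length in nt on a log axis, with 1 panel per comparison and grey bars at the median of all tested genes in each of 5 equal bins of length. In NMN-supplemented compared to control oocytes the bars climb from −0.23 to 0.34 and KNL1 lies above them at 0.96.

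ZWINT, which binds KNL1 and links it to the RZZ complex, was low and variable. Its FPKM was 1.36 and 0.821 in control samples, 1.09 and 1.94 in samples heated without NMN, and 1.82 and 1.53 in those heated with it. Both NMN-supplemented samples exceeded both controls, and the heat-stressed samples spanned the range of the NMN-supplemented ones and overlapped the controls. The change between NMN-supplemented and control oocytes was 0.36 on the log2 scale (SE 0.22, 95% interval −0.19 to 0.92, limma adjusted P = 0.265), and it turned to −0.05 when length and GC trends were removed. The ratio of KNL1 to ZWINT within a sample, which no scaling of the whole library can alter, was 1.5 and 1.31 in the controls, 1.75 and 1.64 after heat stress, and 2.06 and 2.62 after heat with NMN. The 3 groups did not overlap in this ratio, and the share of other gene pairs that would do the same was not counted. A trend with transcript length can still alter the ratio, since KNL1 has 8982 nt and ZWINT 4980 nt.

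TTK, the kinase that starts checkpoint signalling, was the checkpoint gene with the closest controls. Its FPKM was 1.90 and 1.89 in control samples, 2.59 and 2.18 in samples heated without NMN, and 2.56 and 2.43 in those heated with it. Both groups that were heated lay above the controls and overlapped each other. The log2 change was 0.22 (SE 0.12, limma adjusted P = 0.317) with heat stress and 0.27 (SE 0.12, 95% interval −0.03 to 0.57, limma adjusted P = 0.147) in NMN-supplemented compared to control oocytes, neither past the threshold. TTK also has a long, GC-poor transcript (4787 nt, 37.6% GC), and with length and GC trends removed the same changes were −0.10 and −0.14.

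BUB1, the kinase partner of BUB3, was low in each sample. Its FPKM was 0.515 and 0.589 in the controls, 0.334 and 0.501 after heat stress, and 0.545 and 0.314 after heat with NMN. Both heat-stressed samples were below both controls, and the NMN-supplemented samples overlapped both other groups. BUB1 did not enter the main test. In a fit with the minimum lowered to 0.1 FPKM its log2 change was −0.13 (SE 0.12, limma adjusted P = 0.619) with heat stress and −0.12 (adjusted P = 0.551) in NMN-supplemented compared to control oocytes.

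Among the proteins of the mitotic checkpoint complex, MAD2L1, which adopts the closed form that binds CDC20, was the most abundant mRNA. Its FPKM was 20.4 and 30.1 in control samples, 27.0 and 23.7 in samples heated without NMN, and 25.8 and 21.6 in those heated with it. The controls were the lowest and the highest of the 6 samples, and the groups overlapped in all 3 comparisons. The group means were 25.3 ± 6.85, 25.3 ± 2.36 and 23.7 ± 2.96 FPKM (SD, n = 2). The log2 change was 0.02 (SE 0.21, 95% interval −0.50 to 0.55, limma adjusted P = 0.947) with heat stress and −0.07 (95% interval −0.59 to 0.45, limma adjusted P = 0.821) in NMN-supplemented compared to control oocytes. The sign of these changes turned when single samples were left out.

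BUB3, the WD-repeat protein that brings BUB1 and BUB1B to KNL1, had the narrowest range, with the highest sample at 1.24 times the lowest. Its FPKM was 8.04 and 8.37 in the controls, 8.33 and 7.80 after heat stress, and 6.85 and 6.75 after heat with NMN. Both NMN-supplemented samples were below all the others, whereas heat-stressed and control samples overlapped. The NMN-supplemented mean was 0.829 times that of control, a log2 change of −0.24 (SE 0.10, 95% interval −0.50 to 0.02, limma adjusted P = 0.147). Compared to heat-stressed oocytes the change was −0.22 (SE 0.10, limma adjusted P = 0.390). With median ratio scaling, which sets the typical gene to no change, the NMN-supplemented to control change was −0.38, and it was −0.42 with length and GC trends removed.

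BUB1B (BUBR1), the inhibitory pseudokinase of the complex, lay on the opposite side. Its FPKM was 5.08 and 4.59 in control samples, 4.21 and 5.55 in samples heated without NMN, and 6.13 and 6.09 in those heated with it. Both NMN-supplemented samples were above all the others, and the heat-stressed samples enclosed the controls. The NMN-supplemented mean was 1.26 times that of control, with a log2 change of 0.29 (SE 0.15, 95% interval −0.08 to 0.65, limma adjusted P = 0.196), and the change compared to heat-stressed oocytes was 0.28 (limma adjusted P = 0.398). The first of these was 0.15 with median ratio scaling and 0.0295 with length and GC trends removed. With heat stress alone the change was 0.0033 (SE 0.15), the smallest of the 6 tested genes.

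Since BUB1B and BUB3 act as partners, their ratio was taken within each sample. BUB1B stood at 0.632 and 0.548 of BUB3 in the controls, 0.505 and 0.711 after heat stress, and 0.895 and 0.902 after heat with NMN. The NMN-supplemented samples were above the other 4, which overlapped. The means were 0.590 ± 0.0590 in control, 0.608 ± 0.146 in heat-stressed and 0.899 ± 0.00527 in NMN-supplemented oocytes (SD, n = 2). The ratio of KNL1 to BUB3 likewise put both NMN-supplemented samples, at 0.547 and 0.591, above the other 4, which ran from 0.128 to 0.409. KNL1 to BUB1B ran from 0.234 and 0.402 in control through 0.453 and 0.575 in heat-stressed to 0.611 and 0.655 in NMN-supplemented oocytes, with no overlap of the groups. The ratio of MAD2L1 to BUB3 was 2.54 and 3.60 in control samples, 3.24 and 3.03 in samples heated without NMN, and 3.76 and 3.2 in those heated with it, with overlap between each pair of groups. With 2 samples against 2, an exact two-sided permutation test of any of these ratios cannot go below P = 0.333, so they are given as values. Single genes were often separated as well. Between NMN-supplemented and control oocytes 43.5% of tested genes were higher and 26.4% lower without overlap. The share of all gene pairs whose ratio separates the groups was not counted, for these or the other ratios given. None of the ratios was taken with length and GC trends removed.

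**Figure D3:**
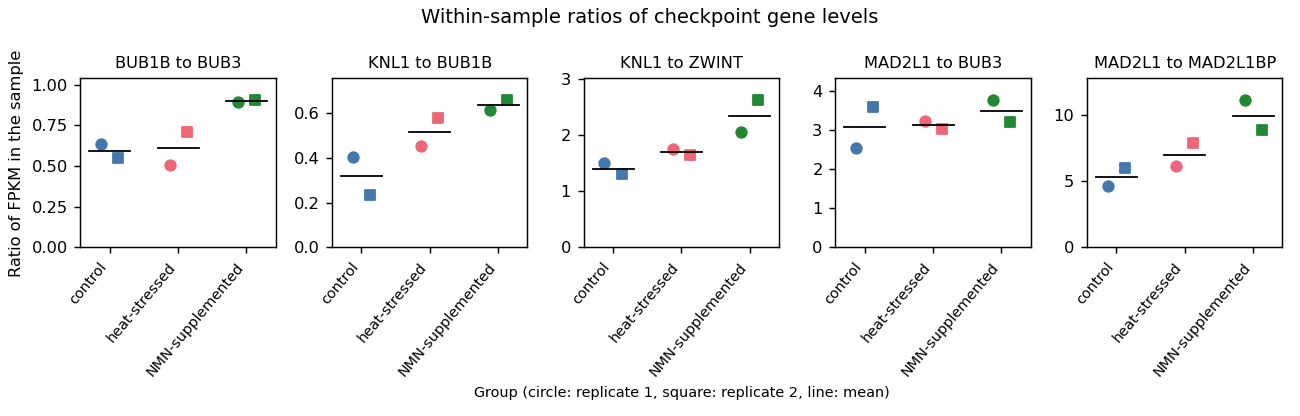
Ratios of FPKM within each of the 6 samples, with 1 panel per pair of genes, the groups on the x axis, circles and squares for replicates 1 and 2 and a line at each group mean. BUB1B stood at 0.895 and 0.902 of BUB3 in the NMN-supplemented samples and between 0.505 and 0.711 in the other 4.

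ZW10 and MAD1L1 were the other checkpoint genes below the minimum for the test. ZW10, a subunit of the RZZ complex that brings MAD1L1 and dynein to kinetochores, was at 0.421 and 0.856 FPKM in the controls, 0.514 and 0.306 after heat stress, and 0.289 and 0.407 after heat with NMN. Both NMN-supplemented samples were below both controls, and the 2 controls differed widely from each other. With the minimum lowered to 0.1 FPKM the change between NMN-supplemented and control oocytes was −0.27 on the log2 scale (SE 0.16, limma adjusted P = 0.348). MAD1L1 was at 0.0186 and 0.0161 FPKM in control samples, 0.0165 and 0.0208 in samples heated without NMN, and 0.0104 and 0.0195 in those heated with it. Its groups overlapped in all 3 comparisons, and at this level no change was detectable.

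Counted over the 6 tested genes, no checkpoint gene was called with heat stress compared to control, at an unadjusted or an adjusted P under 0.05 in limma. Over all tested genes 22.8% passed the unadjusted threshold in this comparison (12.7% higher, 10.1% lower) and 0 genes passed after adjustment. TTK was the 1 tested checkpoint gene whose samples did not overlap, as higher, compared with 31.6% of all tested genes higher and 23.2% lower without overlap. The median log2 change was 0.12 over the 6 genes and 0.05 over all tested genes. The largest upper bound of a 95% interval was that of KNL1, at 1.11.

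In NMN-supplemented compared to heat-stressed oocytes 0 of 6 checkpoint genes passed, compared with 13.6% of all tested genes at an unadjusted P under 0.05 (7.15% higher, 6.45% lower) and 0 after adjustment. KNL1 and BUB1B were higher and BUB3 lower without overlap, where 35.9% of tested genes were higher and 17.6% lower. The median change was 0.08 for the checkpoint genes and 0.08 for all tested genes.

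Between NMN-supplemented and control oocytes KNL1 passed both thresholds and the other 5 neither, with 41.3% of all tested genes past the unadjusted one (25.6% higher, 15.7% lower). KNL1, BUB1B, TTK and ZWINT were higher and BUB3 lower without overlap of the samples, where 43.5% of tested genes were higher and 26.4% lower. The median change was 0.28 over the 6 genes, compared with 0.11 over all tested genes. With length and GC trends removed the median of the 6 turned to −0.08, compared with 0.07 over all tested genes, and it turned as well with heat stress (from 0.12 to −0.08) and between NMN-supplemented and heat-stressed samples (from 0.08 to −0.02). Median ratio scaling brought the median of all genes to −0.01 and the KNL1 change to 0.84 (limma adjusted P = 0.0785). The split of genes past the unadjusted threshold also depended on the scale, with 62% of them higher as deposited and 44% after median ratio scaling.

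**Figure D4:**
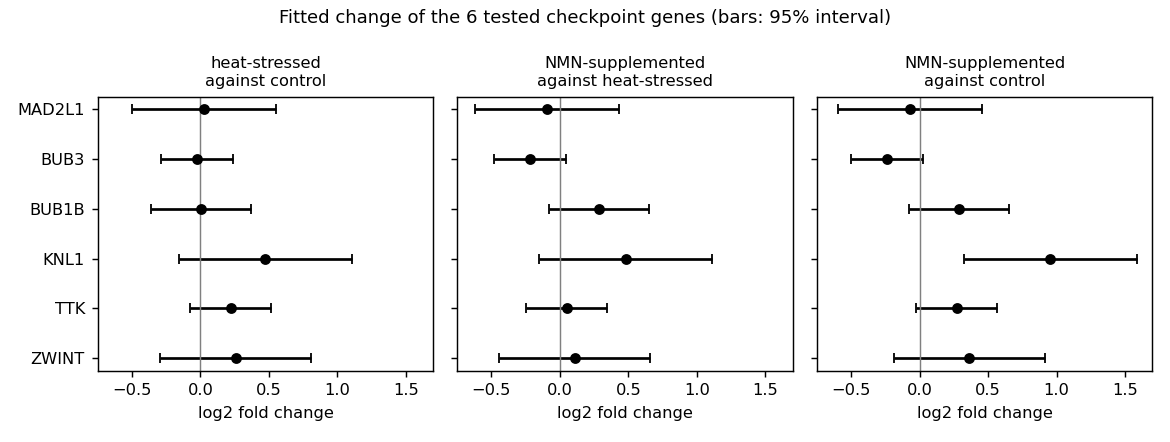
log2 change of the 6 tested checkpoint genes with its 95% interval from limma, with 1 panel per comparison. The interval of KNL1 in NMN-supplemented compared to control oocytes, 0.32 to 1.59, is the one that does not include 0.

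The rest of the checkpoint and kinetochore pathway was taken as 48 further genes, all in the table, of which 28 were tested. With heat stress 1 of the 28 was higher and 2 lower at an unadjusted P under 0.05, and 0 passed after adjustment in limma. That is 10.7% of the list, compared with 22.8% of all tested genes. TRIP13, the ATPase that takes the mitotic checkpoint complex apart by opening MAD2L1, had the smallest P. Its FPKM was 5.40 and 5.85 in the controls, 3.03 and 3.55 after heat stress, and 4.24 and 4.02 after heat with NMN. The heat-stressed samples were the lowest, with a log2 change of −0.63 compared to control (SE 0.12, limma adjusted P = 0.118). CLIP1, a protein that tracks growing microtubule ends, was next, with a change of 0.44 (adjusted P = 0.184).

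CDC20, the target that MAD2L1 and BUB1B hold in check, was at 7.74 and 8.34 FPKM in control samples, 5.24 and 6.06 in samples heated without NMN, and 9.90 and 7.13 in those heated with it. The heat-stressed samples were below the other 4, and control and NMN-supplemented samples overlapped. The log2 change was −0.45 with heat stress (SE 0.17, limma adjusted P = 0.215) and 0.50 in NMN-supplemented compared to heat-stressed oocytes (SE 0.17, limma adjusted P = 0.350). The ratio of MAD2L1 to CDC20 was 2.64 and 3.61 in the controls, 5.15 and 3.90 after heat stress, and 2.60 and 3.03 after heat with NMN, so both heat-stressed samples had a higher ratio than the other 4.

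In NMN-supplemented compared to heat-stressed oocytes, 3 of the 28 further genes were higher and 6 lower at an unadjusted P under 0.05, and 0 passed after adjustment. That is 32.1% of the list, compared with 13.6% of all tested genes. HASPIN, listed under its older symbol GSG2, is the histone kinase that marks centromeres for the Aurora kinase complex. Its locus in the table is shared with another gene. It had the smallest P, with a change of −0.92 (SE 0.17, limma adjusted P = 0.222). DSN1, a subunit of the MIS12 complex on which KNL1 rests, averaged just over the minimum and followed with −0.58 (limma adjusted P = 0.222). CENPO, an inner kinetochore protein whose locus in the table is shared by 3 genes, had a change of 0.33 (limma adjusted P = 0.350).

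Between NMN-supplemented and control oocytes 4 of the 28 were higher and 8 lower at an unadjusted P under 0.05, 42.9% of the list compared with 41.3% of all tested genes, and 1 rose and 4 fell at an adjusted P under 0.05. CLIP1 rose from 2.43 and 2.11 FPKM in control to 4.97 and 4.67 in NMN-supplemented oocytes (log2 change 0.83, SE 0.15, limma adjusted P = 0.0249). GSG2 fell from 5.97 and 7.22 to 1.95 and 2.79 FPKM (−1.18, SE 0.17, limma adjusted P = 0.0210), with 5.35 and 5.29 in heat-stressed oocytes. MAD2L1BP (p31comet), which works with TRIP13 in releasing MAD2L1, fell from 4.42 and 5.0 to 2.33 and 2.44 FPKM (−0.75, SE 0.17, limma adjusted P = 0.0378). CENPQ, of the inner kinetochore, and DSN1 were the others that fell, by 0.54 (limma adjusted P = 0.0412) and 0.52 (limma adjusted P = 0.0427) on the log2 scale. Leaving out single samples left 0 to 4 genes of the list past the adjusted threshold. The median over the 28 was 0.04, and 5 of 28 past the adjusted threshold compares with 21.5% of all tested genes.

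MAD2L1 stood beside a lower level of its release factor in NMN-supplemented oocytes. The ratio of MAD2L1 to MAD2L1BP was 4.62 and 6.03 in control samples, 6.12 and 7.90 in samples heated without NMN, and 11.1 and 8.84 in those heated with it. The 3 groups did not overlap, again without a count of other gene pairs to set beside it. The most abundant mRNAs of the wider list were CENPO at a mean of 29.0 FPKM, CDCA8 (borealin, of the Aurora kinase complex) at 21.9 and MIS12 at 17.1, the same range as MAD2L1 at 24.8. The listed loci of CDCA8 and MIS12, like that of CENPO, are shared with other genes, so these levels are less certain.

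**Figure D5:**
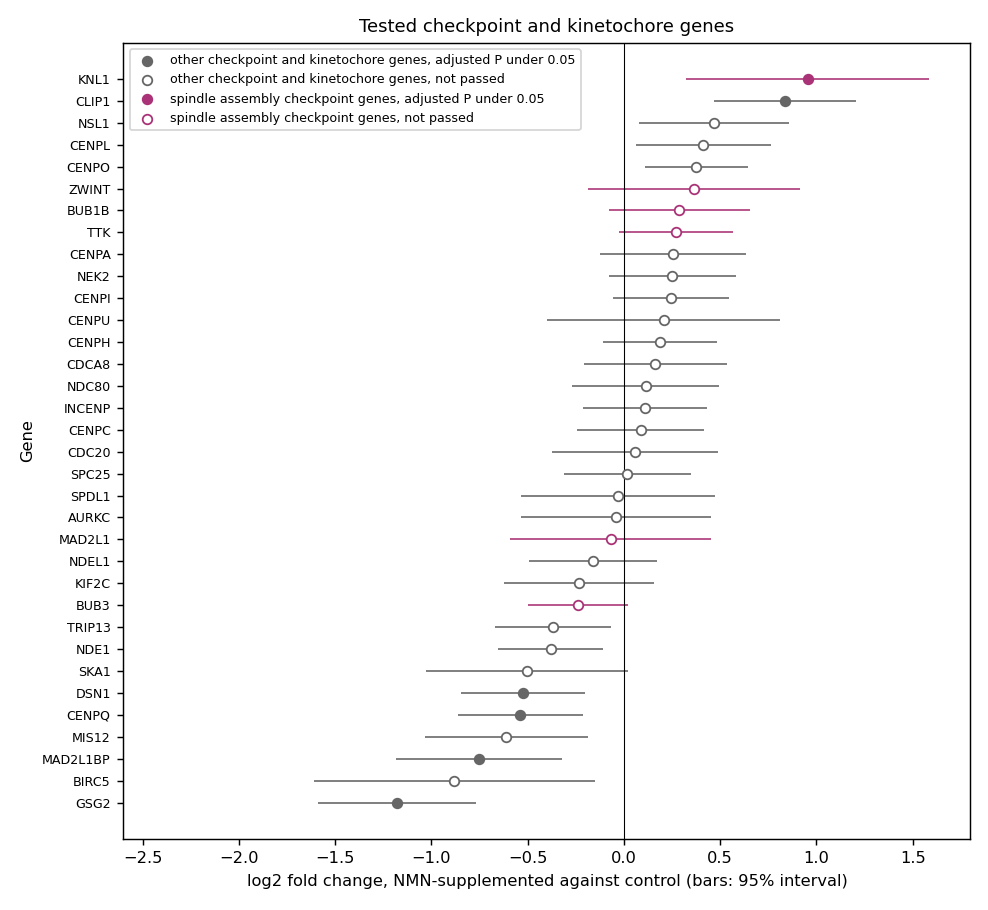
log2 change between NMN-supplemented and control oocytes of the 6 tested checkpoint genes and 28 further checkpoint and kinetochore genes, ordered by change, with 95% intervals from limma. Filled points passed an adjusted P under 0.05, which KNL1 and CLIP1 did as higher and DSN1, CENPQ, MAD2L1BP and GSG2 as lower.

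For each tested checkpoint gene, the gene with the most similar log2(FPKM + 1) over the 6 samples was looked up, as a description only, since all genes share the 6 libraries and their scaling. KNL1 was most like FAM117B (Pearson r = 0.996), BUB1B most like RNF133 (0.994) and BUB3 most like ATP5G2 (0.994). TTK was most like LOC110256933 (0.997), ZWINT most like LOC100624495 (0.988) and MAD2L1 most like GABARAPL2 (0.982). The number of tested genes with r over 0.95 was 183 for KNL1, 80 for TTK, 40 for BUB3, 27 for BUB1B, 9 for ZWINT and 6 for MAD2L1. None of the 6 nearest genes belonged to the checkpoint or kinetochore lists.

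The libraries held the transcripts of oocytes. Of 15 oocyte markers 14 averaged 1 FPKM or more, FIGLA being the exception. Their summed FPKM was 3651 and 3863 in the controls, 3626 and 3628 after heat stress, and 3499 and 3225 after heat with NMN. Single markers moved both ways. In the same order of groups the mean of ZAR1 was 20.5, 12.8 and 3.57 FPKM, and that of WEE2 was 146, 199 and 250. Of 21 measured markers of cumulus and granulosa cells 18 stayed under 1 FPKM in each sample and AMH, INHA, KRT18 and AREG were listed at 0 in all, with INHBA and GREM1 averaging 1 FPKM or more. The summed FPKM of the cumulus list was 16.8 to 20.6 in control, 11.8 to 15.1 in heat-stressed and 9.99 to 15.7 in NMN-supplemented samples. INHBA made up most of it except in NMN-supplemented replicate 1, where it was 4.35 of 9.99 FPKM. Without INHBA the sum went the other way, at 4.22 and 3.57 in the controls, 4.92 and 5.33 after heat stress, and 5.63 and 5.48 after heat with NMN, without overlap of the groups. GREM1 was the largest part of that sum in each sample. It stood at 2.48 and 1.73 FPKM in the controls, 3.27 and 2.87 after heat stress, and 3.58 and 3.55 after heat with NMN. The sum without GREM1 was not taken, so how far the rise extends to the rest of the list was not tested. The sums with and without INHBA moved with the groups in which KNL1 differed, and their part in that result was not tested. In heat-stressed replicate 1 the single gene LOC100513953 took 13.9% of all FPKM. Absolute depth is unknown, because fragment counts were not analysed here, but the value of 1 fragment gave relative depths from 0.732 in heat-stressed replicate 1 to 1.16 in control replicate 2, with control replicate 1 set to 1.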

How the data were processed

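mRNA libraries of pooled porcine oocytes were sequenced in 6 samples, 2 per group, assigned from the labels. According to the study's methods, the authors trimmed reads with cutadapt and aligned them with tophat2 to the susScr11 genome, and the submitters' processing notes name Cufflinks 2.2.1, Cuffnorm and Cuffdiff. The authors deposited FPKM for 29861 genes. Their fold changes, p-values and q-values, and 2 lists of differentially expressed genes, hold their own comparisons and were not used.

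FPKM were log2-transformed after adding 1, and the 4713 genes with a mean of 1 or more were fitted in 1 model of 3 groups with limma 3.58.1 in R 4.3.3 (empirical Bayes with a variance trend, Benjamini-Hochberg over all tested genes). The threshold was 0.05. The fit was checked on simulated data. Depth is known only between samples, so low FPKM carry counting errors that cannot be stated. Symbols of 29652 genes matched the RefSeq annotation of Sscrofa11.1. Python 3.11.15, pandas 2.3.3, scipy 1.17.1 and pysam 0.24.0 served for the other steps.

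The genes and lists were chosen with earlier results of these data known. Named were the 9 checkpoint genes, and, of 48 further checkpoint and kinetochore genes, CDC20, the 3 with the smallest P in each comparison and the 3 with the highest mean, plus the gene most like each tested checkpoint gene. CENPQ and DSN1 were named as well to complete a count. HAS2 was not analysed here. Alternatives were a pseudocount or a minimum of 0.1 FPKM, no minimum, quantile normalization, median ratio scaling, a replicate block, only the compared groups, no variance trend, leaving out each sample, and removal of length and GC trends (splines with 3 degrees of freedom), the last chosen after seeing the data.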

Additional observations from a re-analysis of the deposited data

How the results depend on the processing

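Of 270 values of the 6 tested checkpoint genes under the alternatives, 233 kept their direction and side of the unadjusted threshold, 22 changed sign, 13 newly passed and 2 no longer passed. The causes were not tested. Several alternatives leave the log2 change as it is, so those values could not change sign. These are a lower or no minimum, the replicate block, only the compared groups, no variance trend and leaving out a sample of the group not compared. The adjusted call of KNL1 in NMN-supplemented compared to control oocytes (1 of 6 genes) went to 0 with a pseudocount of 0.1 FPKM, a minimum of 0.1 FPKM, no minimum, quantile normalization, median ratio scaling, the replicate block, no variance trend, and length and GC trends removed, and was 0 to 1 without single samples. It held without either heat-stressed sample and was lost without any of the other 4. At an unadjusted P, 3 checkpoint genes passed there with no minimum and 2 with quantile normalization or median ratio scaling, with 0 to 1 without single samples (0 without control replicate 2). Between NMN-supplemented and heat-stressed oocytes 1 gene, BUB3, passed with no minimum, quantile normalization, median ratio scaling or length and GC trends removed, and 0 to 2 without single samples (BUB1B and KNL1 without heat-stressed replicate 2). With heat stress it was 0 to 1 (KNL1, without control replicate 1 or heat-stressed replicate 1).

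Among log2 changes with heat stress, BUB1B turned from 0.0033 to −0.0022 with quantile normalization, −0.0498 with median ratio scaling and −0.17 with length and GC trends removed, and spanned −0.16 to 0.17 without single samples. MAD2L1 turned to −0.0366 with median ratio scaling and −0.0541 with length and GC trends removed, spanning −0.24 to 0.29. TTK (−0.10) and ZWINT (−0.055) turned with length and GC trends removed, and BUB3 spanned −0.0638 to 0.0195. Between NMN-supplemented and heat-stressed oocytes TTK turned to −0.018 with median ratio scaling and −0.0448 with length and GC trends removed. Without single samples it spanned −0.0366 to 0.14, MAD2L1 −0.22 to 0.0283 and ZWINT −0.14 to 0.36. Between NMN-supplemented and control oocytes TTK (−0.14) and ZWINT (−0.0472) turned with length and GC trends removed, and MAD2L1 spanned −0.34 to 0.20.

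Over all genes at an unadjusted P, 1074 with heat stress became 1865 with a minimum of 0.1 FPKM, 2388 with no minimum and 648 to 1015 without single samples. Between NMN-supplemented and heat-stressed oocytes 641 became 1161, 1557 and 327 to 701, and between NMN-supplemented and control oocytes 1948 became 3236, 3700 and 1233 to 1941. Adjusted calls in the last comparison went from 1015 to 86 with a minimum of 0.1 FPKM, 0 with no minimum, 445 with the replicate block, 392 with length and GC trends removed and 0 to 798 without single samples. In the other comparisons they were 0, with 1 each under no variance trend, and 0 to 1 with heat stress and 0 to 2 between NMN-supplemented and heat-stressed oocytes without single samples. Of the genes past an unadjusted P in NMN-supplemented compared to heat-stressed oocytes, 52.6% were higher, but 23.2% with median ratio scaling, 41.3% with quantile normalization and 40.8% with the block. With heat stress 55.7% were higher, but 42.7% with median ratio scaling.

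Of the 28 other checkpoint and kinetochore genes, 5 adjusted calls between NMN-supplemented and control oocytes became 0 with a minimum of 0.1 FPKM or none, 8 with median ratio scaling, 2 with the replicate block and 0 to 4 without single samples. Their unadjusted calls without single samples were 1 to 4 with heat stress, 2 to 7 between NMN-supplemented and heat-stressed oocytes and 6 to 13 between NMN-supplemented and control oocytes.

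Same-numbered samples did not deviate together over the tested genes (correlations of −0.03, 0.0080 and −0.01). The labels give them no common origin, and these values cannot show that they had none. The replicate block gave KNL1 an adjusted P of 0.0833 (limma) between NMN-supplemented and control oocytes. The order of levels had 6 separated pairs of neighbours and 0 without any single sample, since 5 samples cannot go below an exact permutation P of 0.0625, and BUB1 and ZW10 changed places without control replicate 1, heat-stressed replicate 2 or NMN-supplemented replicate 1.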
